A study of Homo sapiens with 6 samples.

Results

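E2F7 was knocked down in U2OS cells, an established human osteosarcoma line, and its effect on RNA at the G1/S arrest, 0 h after the block was lifted, is described here. The cells had been held with 4 mM hydroxyurea, an inhibitor of ribonucleotide reductase, for 24 h. The siE2F7 library came from cells given siRNA against E2F7, and the siNT library from cells given a non-targeting siRNA; both arms carried the hydroxyurea block, and each arm had 1 library at 0 h. The same arms at 3 h and 12 h after release, again with 1 library each, serve as background, so that 2 of the 6 libraries of the series are at the centre of the account. Knockdown was by siRNA in 1 line and the labels name no sorting of cells, so a change in part of the cells cannot be told apart from a change in RNA per cell.

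E2F transcription factors switch on the genes of S phase. In G1 the activators E2F1, E2F2 and E2F3 are held by the retinoblastoma protein, and cyclin E kinase activity frees them; their targets build replication origins, make deoxynucleotides and repair DNA. E2F7 and E2F8 are atypical members of the family that bind E2F sites without a DP partner and repress, among other targets, E2F1 itself, which limits the same programme once S phase has begun. Hydroxyurea starves replication forks of deoxynucleotides, so that blocked cells gather at the start of S phase, when transcription of E2F targets is normally high.

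Values are given in FPKM as deposited, a measure of sequenced fragments adjusted for the length of the transcript and the size of the library. A log2 ratio compares siE2F7 with siNT after adding 0.1 FPKM to each; it understates the change of low genes. Where a number stands in parentheses after the levels of a gene, it is this log2 ratio. Of 12799 genes listed at 0 h, 9008 had a mean of at least 5 FPKM over the pair. Leaving out 45 small RNA entries left 8963 genes, and no other gene was at 0. With 1 library an arm, siE2F7 could not be tested against siNT within 0 h, and those ratios are described by size; tests below concern the later libraries and the difference between 0 h and them. Library sums lay between 351305 and 375954 FPKM over the 6 libraries; the number of reads behind them is unknown.

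The labelled tissue was checked against its markers. At 0 h 6 of 10 bone lineage markers were listed, among them the collagen gene COL1A1 at 358 FPKM in siE2F7 and 376 FPKM in siNT, the matrix gene SPARC at 456 FPKM in siE2F7 and 528 FPKM in siNT, and the osteoblast regulator RUNX2 at 2.83 FPKM in siE2F7 and 3.00 FPKM in siNT. All 3 mesenchymal markers were counted, with VIM at 786 FPKM in siE2F7 and 761 FPKM in siNT and CDH2 the lowest at 27.9 FPKM in siE2F7 and 24.1 FPKM in siNT. Of 5 blood markers LAPTM5 and CD68 were listed, the higher of them at 6.74 FPKM in siE2F7 and 7.19 FPKM in siNT, and of 7 epithelial markers 5, led by KRT18 at 127 FPKM in siE2F7 and 145 FPKM in siNT. At any time, 6 of the 10 bone lineage markers and 0 of the 3 endothelial markers were listed. The bone markers SP7, BGLAP and IBSP were not analysed here. Over counted members, bone lineage markers summed to 835.3 FPKM in siE2F7 and 931.9 FPKM in siNT and epithelial markers to 200.5 FPKM in siE2F7 and 241.5 FPKM in siNT; the part of these shifts in other results was not tested.

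The E2F7 transcript itself, from a gene at chromosome 12, 77415026 to 77459360 of hg19, stood at 9.48 FPKM in siE2F7 and 20.3 FPKM in siNT at 0 h, a log2 ratio of -1.09. This was the smallest of its 3 ratios: at 3 h siE2F7 had 10.6 FPKM against 29.4 FPKM in siNT (-1.46), and at 12 h it had 5.52 FPKM against 16.6 FPKM in siNT (-1.57). The difference between the 0 h ratio and the mean of the later ratios, 0.42 ± 0.18 (SE, limma), did not pass (adjusted p = 0.974).

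Among all genes counted, 32 were at least 2-fold higher in siE2F7 at 0 h, or 0.357%, and 25 were at least 2-fold lower, or 0.279%. At 1.5-fold, 182 genes were higher (2.03%) and 219 lower (2.44%), and 95.53% of genes lay within 1.5-fold. Which direction held more genes depended on the settings: at a minimum of 1 FPKM 77 genes were 2-fold higher and 108 lower, and after median centring 207 were 1.5-fold higher and 199 lower. The median log2 ratio was -0.03, with quartiles at -0.17 and 0.13. Ratios were above 0 for 4045 genes and below 0 for 4918. More genes passed 2-fold after release, with 56 higher and 33 lower of 8752 genes at 3 h and 84 higher and 79 lower of 8769 at 12 h. Among the 32 higher genes the median level was 24.4 FPKM in siE2F7 and 9.92 FPKM in siNT; among the 25 lower genes it was 9.48 FPKM in siE2F7 and 20.3 FPKM in siNT. Of 581 genes with a pair mean of at least 100 FPKM, 9 were 1.5-fold higher and 4 lower, beside 2.03% and 2.44% of all genes counted.

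**Figure D1:**
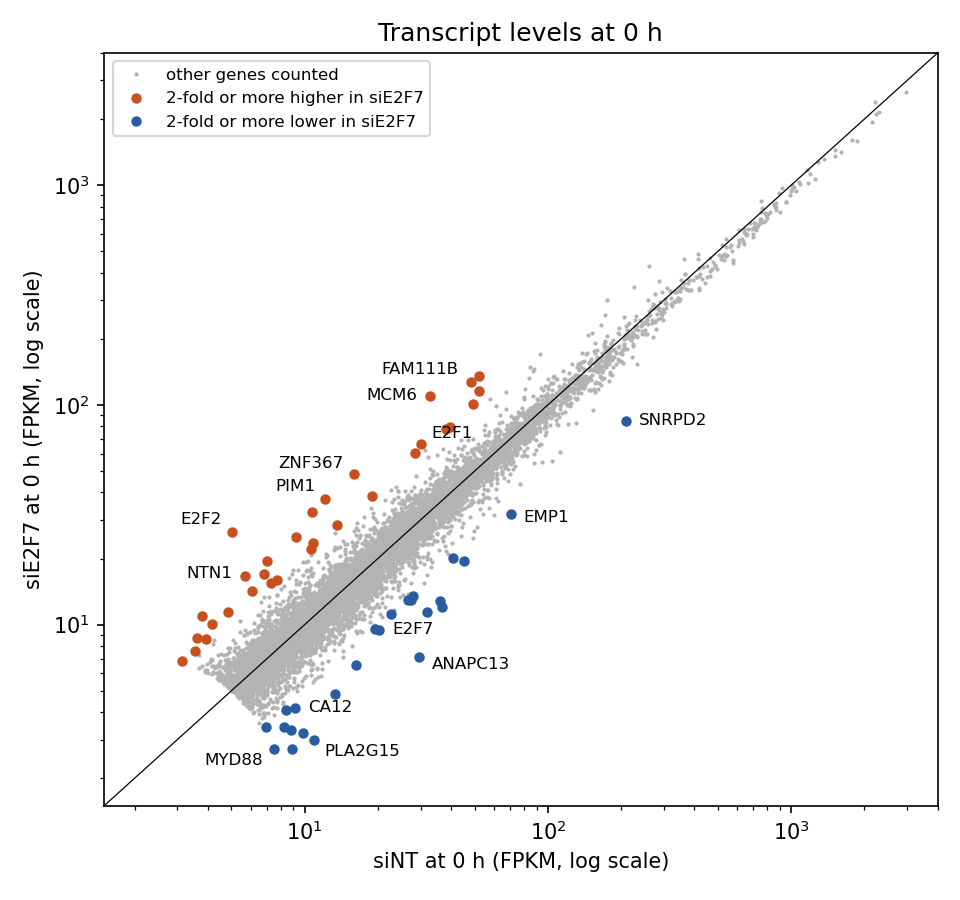
FPKM of each counted gene at 0 h in siE2F7 (vertical, log scale) against siNT (horizontal, log scale), 1 library per arm; the line marks equal levels, orange points are the genes 2-fold or more higher in siE2F7 and blue points those 2-fold or more lower. CSAG3 lies outside the horizontal range; most points follow the line, and E2F2 stands at 26.3 FPKM in siE2F7 and 5.04 FPKM in siNT.

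The libraries of 3 h and 12 h gave a test of the same genes on samples that the 0 h ratio did not use. In limma, fitted on 11741 genes listed at all times, 751 genes rose with knockdown over 3 h and 12 h (6.4%) and 780 fell (6.64%; Benjamini-Hochberg adjusted p at 0.05). Of the 32 genes higher at 0 h, 31 were fitted and 29 rose there, with a median later log2 ratio of 1.68. The other fitted genes, INO80B and NBL1, missed the threshold (adjusted p = 0.751 and 0.146, limma). Of the 25 genes lower at 0 h, 23 fell there, with a median of -1.25; PCTP and TMEM189-UBE2V1 missed it (adjusted p = 0.0607 and 0.0545, limma). All 57 ratios kept their sign at 3 h, and at 12 h the signs differed only for INO80B and NBL1, with CSAG3 not listed at that time.

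Promoter sequence was read for the genes at the top of the 0 h ranking, because E2F factors bind a short, well-defined site. The table of RefSeq promoters (GRCh38.p14) reaches from 250 bases before to 50 after each start. Only genes with exactly 1 promoter in it were read, which were 17 of the 32 higher genes and 12 of the 25 lower ones. Genes with none or with several were left out. The motifs TTTCCCGC, TTTGGCGC, TTTCGCGC and TTTGCCGC were searched on both strands. A run that holds motifs of both strands, such as those in MCM6 and MCM2, counts as overlapping matches. At least 1 match was found in 8 of the 17 higher genes (47.06%) and in 0 of the 12 lower genes. Set beside them were 277 of the 4581 genes counted with exactly 1 promoter (6.05%) and 1164 of all 35116 promoters of the table (3.31%). More than 1 match was found in 4 of the 17, MCM6, ZNF367, E2F1 and MCM2, against 0.35% of promoters of genes counted. At 1.5-fold the shares were 21 of 96 for higher genes (21.88%) and 1 of 108 for lower genes (0.93%). A match describes the letters in this window and is not evidence of binding.

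Shown 5′ to 3′ on the gene's own strand are the promoters of the activator genes E2F2 and E2F1, of the helicase subunit genes MCM6 and MCM2 and of ZNF367, which carry matches, with PIM1 as a gene near the top of the ranking that carries none; capitals mark the matched bases. Their places in GRCh38.p14 are chr1:23531184-23531483 on the minus strand for E2F2, chr20:33686336-33686635 on the minus strand for E2F1, chr2:135876394-135876693 on the minus strand for MCM6, chr3:127598161-127598460 on the plus strand for MCM2, chr9:96418321-96418620 on the minus strand for ZNF367 and chr6:37169902-37170201 on the plus strand for PIM1.
E2F2: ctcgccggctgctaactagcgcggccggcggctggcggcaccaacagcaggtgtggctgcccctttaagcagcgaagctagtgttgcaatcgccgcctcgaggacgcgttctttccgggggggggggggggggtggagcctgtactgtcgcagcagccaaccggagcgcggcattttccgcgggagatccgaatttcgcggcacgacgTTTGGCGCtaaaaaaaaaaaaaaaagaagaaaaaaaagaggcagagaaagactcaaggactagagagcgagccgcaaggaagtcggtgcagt
E2F1: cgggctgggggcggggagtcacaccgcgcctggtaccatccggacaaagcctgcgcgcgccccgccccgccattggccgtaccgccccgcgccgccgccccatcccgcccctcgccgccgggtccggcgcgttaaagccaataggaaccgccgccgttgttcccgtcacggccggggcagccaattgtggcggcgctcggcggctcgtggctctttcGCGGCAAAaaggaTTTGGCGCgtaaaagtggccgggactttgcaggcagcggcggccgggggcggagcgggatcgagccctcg
MCM6: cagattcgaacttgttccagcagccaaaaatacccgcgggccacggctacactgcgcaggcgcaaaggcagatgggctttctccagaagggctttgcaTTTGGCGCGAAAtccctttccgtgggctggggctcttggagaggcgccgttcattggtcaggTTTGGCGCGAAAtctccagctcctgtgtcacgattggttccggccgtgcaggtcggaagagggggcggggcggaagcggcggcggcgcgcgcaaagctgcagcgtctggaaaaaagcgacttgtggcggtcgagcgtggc
MCM2: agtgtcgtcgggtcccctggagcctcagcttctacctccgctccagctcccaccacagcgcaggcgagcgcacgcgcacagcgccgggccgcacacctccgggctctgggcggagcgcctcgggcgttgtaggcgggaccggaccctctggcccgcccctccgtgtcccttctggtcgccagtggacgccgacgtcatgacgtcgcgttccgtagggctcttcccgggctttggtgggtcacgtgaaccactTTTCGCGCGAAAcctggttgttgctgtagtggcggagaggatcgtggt
ZNF367: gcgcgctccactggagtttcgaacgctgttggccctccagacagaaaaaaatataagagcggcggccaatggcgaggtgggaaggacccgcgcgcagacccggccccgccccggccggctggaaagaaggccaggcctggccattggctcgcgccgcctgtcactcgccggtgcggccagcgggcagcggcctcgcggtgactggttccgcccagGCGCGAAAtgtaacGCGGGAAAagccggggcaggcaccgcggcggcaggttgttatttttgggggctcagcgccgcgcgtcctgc
PIM1: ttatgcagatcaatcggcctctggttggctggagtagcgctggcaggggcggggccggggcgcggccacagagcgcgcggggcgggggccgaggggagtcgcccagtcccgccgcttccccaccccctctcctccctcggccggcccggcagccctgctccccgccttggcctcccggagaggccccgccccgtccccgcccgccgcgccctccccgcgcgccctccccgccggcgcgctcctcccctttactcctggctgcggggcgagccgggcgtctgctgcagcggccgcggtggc

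In E2F2 the single match began 42 bases before the start. E2F1 had matches beginning 33 and 20 bases before the start, and ZNF367 matches 35 and 21 bases before it. In MCM6 overlapping pairs of matches began 152 and 148 bases and 90 and 86 bases before the start, and in MCM2 an overlapping pair lay just after it. The remaining genes with a match were PTPMT1, CDCA7 and GINS2.

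Among the E2F genes, the activators and the second atypical member stood higher in siE2F7. E2F2 (chromosome 1, 23832920 to 23857712, hg19) had the largest ratio of the genes listed at all times, with 26.3 FPKM in siE2F7 and 5.04 FPKM in siNT, a log2 ratio of 2.36. At 3 h it stood at 29.7 FPKM in siE2F7 and 1.89 FPKM in siNT and at 12 h at 27.04 FPKM in siE2F7 and 1.30 FPKM in siNT, so siE2F7 held a like level at all times while the siNT level was highest at 0 h. The 0 h ratio minus the mean of the later ones was -1.73 ± 0.23 (SE, log2), which did not pass over all genes (adjusted p = 0.0805, limma; 0.00647 to 0.873 over the alternatives). E2F1, the best known activator, had 66.5 FPKM in siE2F7 and 30.1 FPKM in siNT (1.14). At 12 h it had 54.2 FPKM in siE2F7 and 12.04 FPKM in siNT. E2F8, the other atypical repressor, had 11.4 FPKM in siE2F7 and 4.84 FPKM in siNT (1.22). All 3 rose in the later libraries, with log2 ratios of 4.09 ± 0.13, 1.84 ± 0.13 and 1.84 ± 0.14 for E2F2, E2F1 and E2F8 (SE; adjusted p from 3.29e-07 to 5e-05, limma).

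The rest of the family lay closer together. E2F3, the remaining classical activator, had 15.1 FPKM in siE2F7 and 10.6 FPKM in siNT (0.51). Levels were nearly equal for the repressors E2F4, at 22.5 FPKM in siE2F7 and 24.5 FPKM in siNT, and E2F6, at 16.2 FPKM in siE2F7 and 16.2 FPKM in siNT, and TFDP1, the main DP partner, had 106 FPKM in siE2F7 and 90.3 FPKM in siNT. E2F5 and TFDP2 were below the minimum of 5 FPKM. Of the pocket proteins, RB1 had 18.8 FPKM in siE2F7 and 20.4 FPKM in siNT. RBL1 had 11.96 FPKM in siE2F7 and 9.75 FPKM in siNT, and RBL2 9.45 FPKM in siE2F7 and 11.6 FPKM in siNT. Of 8 counted pocket protein and MuvB genes 0 passed 1.5-fold, beside 2.03% higher and 2.44% lower over all genes counted. MYBL2, a MuvB partner that activates mitotic genes, had 213 FPKM in siE2F7 and 152 FPKM in siNT (0.49) and rose in the later libraries (adjusted p = 0.00186, limma).

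**Figure D2:**
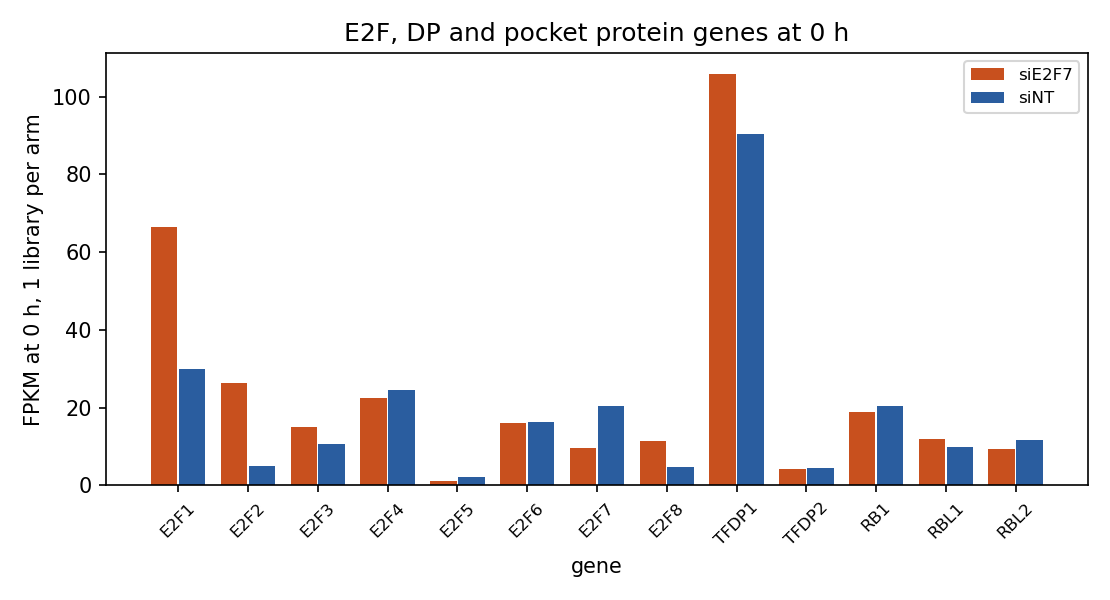
FPKM at 0 h of E2F, DP and pocket protein genes, siE2F7 (orange) beside siNT (blue), 1 library per arm and so without error bars. E2F1, E2F2 and E2F8 are more than 2-fold higher in siE2F7 and E2F7 more than 2-fold lower, while E2F4, E2F6 and RB1 lie near equality.

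Origin licensing and firing held 4 of the 32 genes among 27 counted members, beside 0.357% of all genes counted. The replicative helicase contains the products of MCM6, MCM5 and MCM2, and GINS2 encodes part of the complex that activates it. MCM6 had 110.4 FPKM in siE2F7 and 32.9 FPKM in siNT (1.75). MCM5 stood at 136 FPKM in siE2F7 and 51.9 FPKM in siNT (1.38), GINS2 at 116 FPKM in siE2F7 and 52.1 FPKM in siNT (1.15) and MCM2 at 101 FPKM in siE2F7 and 49.2 FPKM in siNT (1.04), so the helicase subunits differed among themselves in the size of the ratio. MCM3 (0.72) and the helicase partner CDC45 (0.81) followed among abundant genes, at 143 FPKM in siE2F7 and 86.6 FPKM in siNT and at 148 FPKM in siE2F7 and 84.6 FPKM in siNT. Of 27 counted members 8 were 1.5-fold higher and 1 lower, beside 2.03% and 2.44% of all genes counted. The median log2 ratio was 0.38, against -0.03 over all genes. The lower member was GMNN, which encodes geminin, the inhibitor of licensing, at 19.3 FPKM in siE2F7 and 33.3 FPKM in siNT (-0.79). In the later libraries 16 of the 27 rose and 2 fell, GMNN among them (-0.44 ± 0.10, SE, adjusted p = 0.0154, limma). Of all genes fitted 6.4% rose there and 6.64% fell.

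Fork and polymerase genes had smaller ratios, most of them above 0. Of 33 counted members 29 had ratios above 0, beside 4045 of all 8963 genes counted. The median of the list was 0.29, yet 1 passed 2-fold and 2 passed 1.5-fold higher, beside 0.357% and 2.03% of all genes counted. TIPIN, part of the fork protection complex, had 38.6 FPKM in siE2F7 and 19.00 FPKM in siNT (1.02). PCNA, the sliding clamp, was far more abundant at 346 FPKM in siE2F7 and 225 FPKM in siNT (0.62); its locus holds a second entry, so its reads may have been split. In the later libraries 20 of the 33 rose and 1 fell, beside 6.4% and 6.64% of all genes fitted.

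Of 21 genes of nucleotide synthesis, 3 were 1.5-fold higher and 0 lower, beside 2.03% and 2.44% of all genes counted. The median of the list was 0.12. DUT, which clears dUTP and makes dUMP, stood at 79.6 FPKM in siE2F7 and 39.7 FPKM in siNT (1.001), just inside 2-fold. RRM2, the small subunit of ribonucleotide reductase and thus part of the enzyme that hydroxyurea blocks, had 301 FPKM in siE2F7 and 175 FPKM in siNT (0.78). The salvage kinase gene DCK had 59.1 FPKM in siE2F7 and 34.9 FPKM in siNT (0.76). In the later libraries 8 of the 21 rose and 0 fell, beside 6.4% and 6.64% of all genes fitted. SLC19A1, the reduced folate carrier, was also 2-fold higher at 0 h, at 14.2 FPKM in siE2F7 and 6.09 FPKM in siNT.

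The cyclin E genes led the G1/S regulators. CCNE2 had 60.4 FPKM in siE2F7 and 28.6 FPKM in siNT (1.08), with a second entry at its locus, and CCNE1 had 169.8 FPKM in siE2F7 and 92.5 FPKM in siNT (0.88). CDKN2C, an inhibitor of the cyclin D kinases, stood at 41.2 FPKM in siE2F7 and 22.6 FPKM in siNT (0.86), and CDC25A, the phosphatase that activates cyclin E kinase, at 38.05 FPKM in siE2F7 and 24.3 FPKM in siNT (0.64). These are the 4 of 18 counted members past 1.5-fold higher, and 0 were lower, beside 2.03% and 2.44% of all genes counted. The median of the list was 0.31. SKP2 (-0.18), part of the ligase that degrades the inhibitor p27, and CKS1B (-0.32), which encodes its small cofactor, were at the low end. In the later libraries 9 of the 18 rose and 1 fell, beside 6.4% and 6.64% of all genes fitted.

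Among repair genes, 22 of 29 homologous recombination genes had ratios above 0, beside 4045 of all 8963 genes counted. Of the 29, 2 passed 1.5-fold higher, beside 2.03% of all genes counted. The 2 included RMI2, a member of the complex that dissolves crossover intermediates, at 22.5 FPKM in siE2F7 and 13.98 FPKM in siNT (0.69). The mismatch recognition gene MSH6 stood at 106 FPKM in siE2F7 and 57.6 FPKM in siNT (0.88) with a shared locus, and the uracil glycosylase gene UNG at 60.97 FPKM in siE2F7 and 39.1 FPKM in siNT (0.64). UHRF1, which brings the maintenance methyltransferase to newly copied DNA, lay just short of 2-fold at 62.1 FPKM in siE2F7 and 31.3 FPKM in siNT (0.98). RIF1, which guards replication timing and break ends, had 17.7 FPKM in siE2F7 and 10.2 FPKM in siNT (0.79). UNG and RIF1 were the highest members of lists whose other members lay on both sides of 0, with a median of 0.02 over 17 base excision repair genes and of -0.03 over 11 end joining genes. The medians were 0.21 for homologous recombination and 0.24 for the Fanconi anaemia pathway. In the later libraries 13 of 29 and 10 of 14 members rose, with 0 falling in either. Of all genes fitted 6.4% rose there and 6.64% fell.

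Among checkpoint genes CHEK1, the kinase that restrains origins under replication stress, had 19.3 FPKM in siE2F7 and 12.5 FPKM in siNT (0.62). WEE1, which holds mitotic kinase in check, had 31.9 FPKM in siE2F7 and 21.1 FPKM in siNT (0.59). These were the 2 of 15 members past 1.5-fold, beside 2.03% higher and 2.44% lower over all genes counted. The median of the list was 0.03. Cohesin and condensin genes had 18 of 19 ratios above 0, beside 4045 of all 8963 genes counted, and a median of 0.25. The cohesin subunit gene STAG2 led them, at 19.5 FPKM in siE2F7 and 10.3 FPKM in siNT (0.91).

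**Figure D3:**
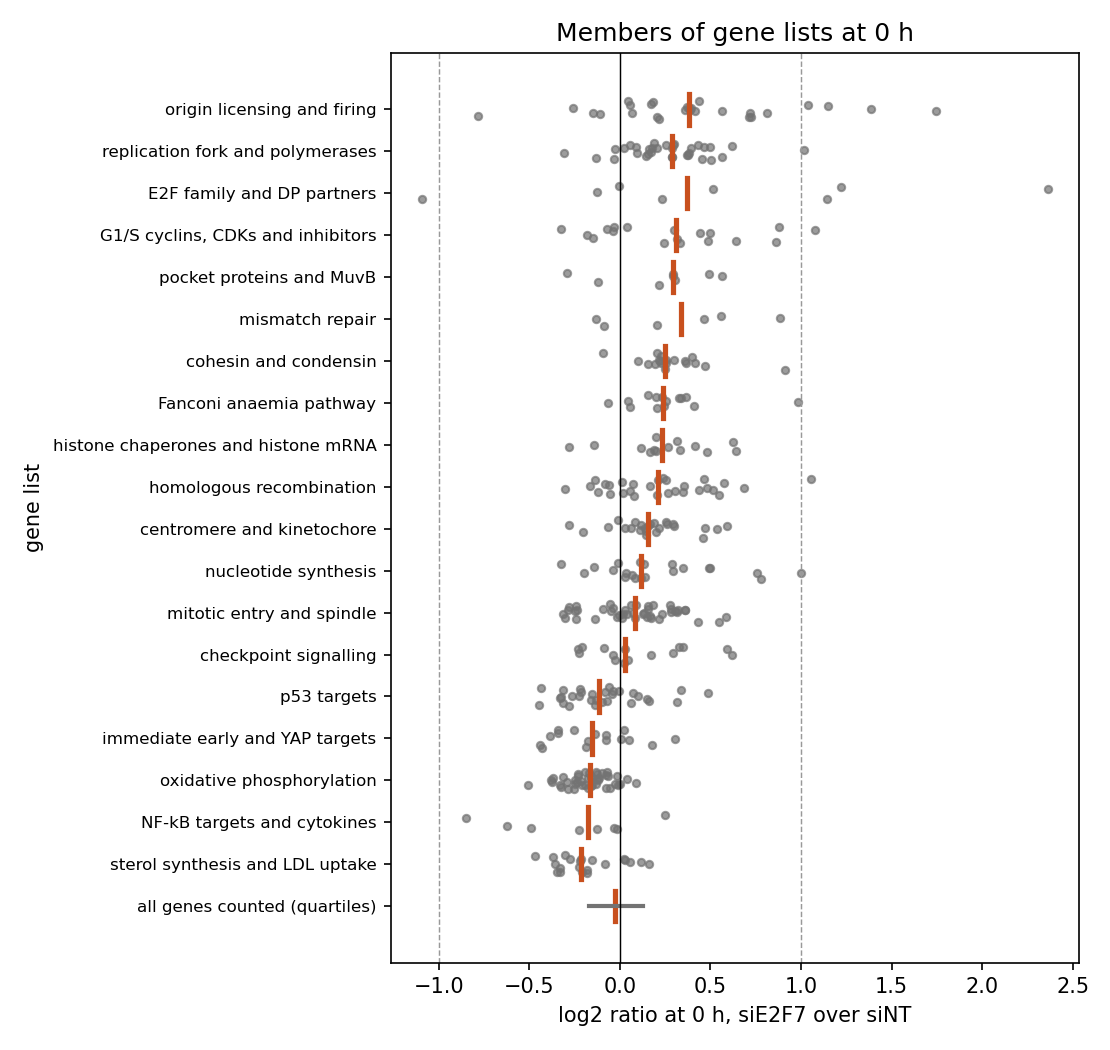
Log2 ratio of siE2F7 over siNT at 0 h for each counted member of 19 gene lists (grey points; orange bars are medians, dashed lines mark 2-fold), with the quartiles and median of all genes counted at the bottom. Origin licensing has its median at 0.38 and points reaching 1.75, while the 44 oxidative phosphorylation genes lie between -0.51 and 0.09.

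Other genes of the 2-fold higher group have roles outside replication. PIM1, a survival kinase induced by cytokines, had 37.3 FPKM in siE2F7 and 12.2 FPKM in siNT (1.61), and its ratios of 1.75 at 3 h and 1.55 at 12 h were close to that at 0 h. NTN1, which encodes the secreted guidance cue netrin, stood at 16.6 FPKM in siE2F7 and 5.68 FPKM in siNT (1.53). MET, the receptor for hepatocyte growth factor, had 25.1 FPKM in siE2F7 and 9.22 FPKM in siNT (1.43), with smaller ratios of 0.99 and 1.06 later. The test of that difference did not pass (adjusted p = 0.966, limma). TP73, a p53 relative that E2F1 activates, had 10.1 FPKM in siE2F7 and 4.18 FPKM in siNT (1.25), again with a shared locus.

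Genes with less settled roles were also in the group. ZNF367, a zinc finger gene, stood at 48.6 FPKM in siE2F7 and 15.98 FPKM in siNT (1.60), and FAM111B, a protease gene, at 127 FPKM in siE2F7 and 48.3 FPKM in siNT (1.40). WDR76 had 19.6 FPKM in siE2F7 and 7.03 FPKM in siNT (1.46), and CDCA7, which works with the chromatin remodeller HELLS, 17.1 FPKM in siE2F7 and 6.84 FPKM in siNT (1.31). At 12 h FAM111B had 59.3 FPKM in siE2F7 and 8.19 FPKM in siNT (2.84) and WDR76 16.2 FPKM in siE2F7 and 2.07 FPKM in siNT (2.91). PTPMT1, a mitochondrial phosphatase of cardiolipin synthesis, had 32.7 FPKM in siE2F7 and 10.8 FPKM in siNT (1.59) at a shared locus.

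Entries with a shared locus include the most extreme case. CSAG3, a cancer-testis gene on X with near-identical copies, was listed at 10.4 FPKM in siE2F7 and 0.0022 FPKM in siNT, and no fold is given because reads of the copies may have been split between entries. INO80B, a subunit of a chromatin remodelling complex, stood at 10.9 FPKM in siE2F7 and 3.79 FPKM in siNT at 0 h (1.501), but its ratio was 0.39 at 3 h and -0.20 at 12 h. That difference of 1.41 ± 0.26 (SE) did not pass over all genes (adjusted p = 0.488, limma; 0.0418 to 0.994 over the alternatives). In all, 9 of the 57 genes past 2-fold share a locus, as do 1481 of the 8963 genes counted. NBL1, also at a shared locus, had ratios of 1.04, 2.91 and -0.35 at 0, 3 and 12 h.

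Another set of 2-fold higher genes had ratios between 1.03 and 1.24. CALU, which encodes a calcium-binding protein of the secretory pathway, was the most abundant, at 78.02 FPKM in siE2F7 and 38.2 FPKM in siNT. The lipid kinase gene PIP4K2A had 28.4 FPKM in siE2F7 and 13.5 FPKM in siNT, the RNA-binding protein gene MEX3D 23.6 FPKM in siE2F7 and 10.8 FPKM in siNT and the inositol phosphatase gene IMPA2 15.5 FPKM in siE2F7 and 7.28 FPKM in siNT. IL17RB, a cytokine receptor, had 8.67 FPKM in siE2F7 and 3.62 FPKM in siNT, and LPL, which encodes lipoprotein lipase, 7.57 FPKM in siE2F7 and 3.55 FPKM in siNT. SPSB4 and PABPC4L were low as well, with 8.59 FPKM in siE2F7 and 3.95 FPKM in siNT for SPSB4 and 6.87 FPKM in siE2F7 and 3.14 FPKM in siNT for PABPC4L. At 12 h SPSB4 had 1.95 FPKM in siE2F7 and 0.374 FPKM in siNT, a log2 ratio of 2.11.

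**Figure D4:**
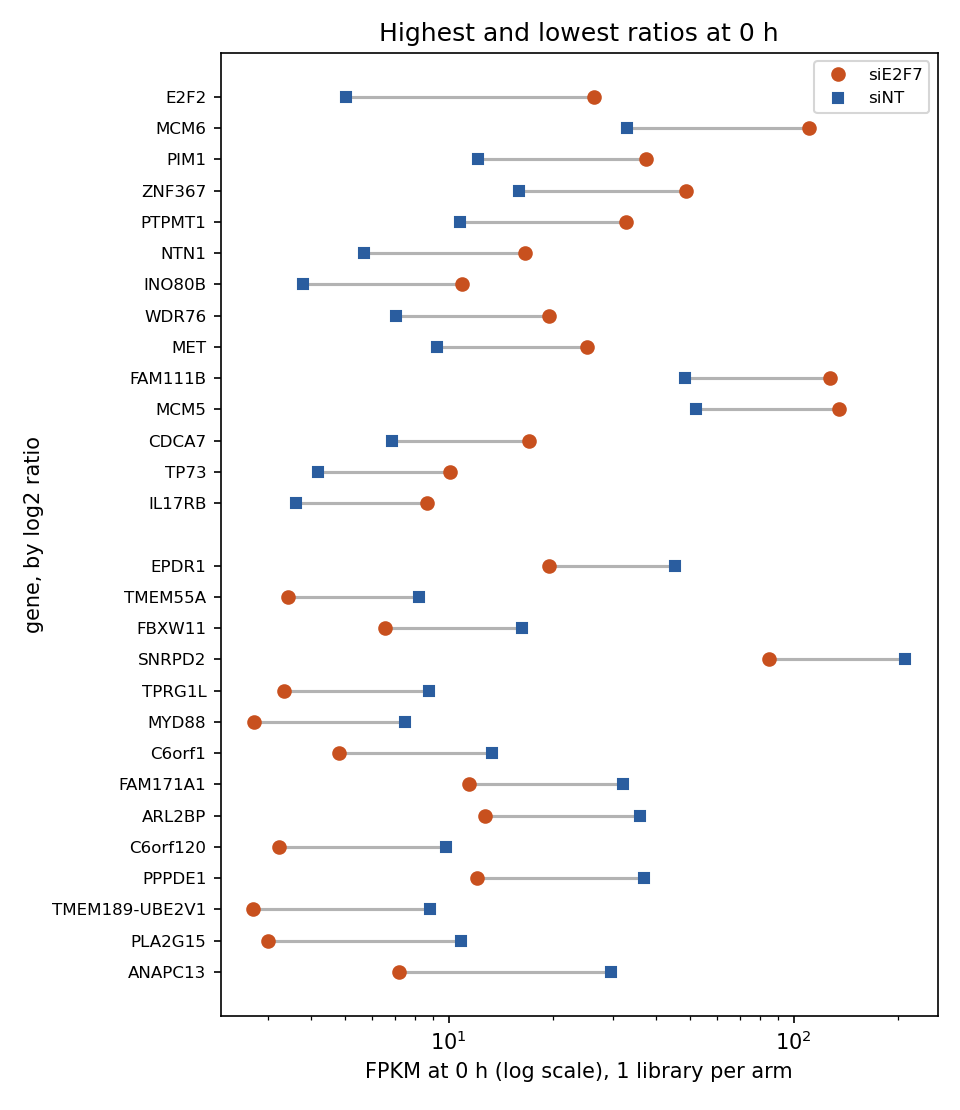
FPKM at 0 h (log scale) in siE2F7 (orange circles) and siNT (blue squares), 1 library per arm, of the 14 genes with the highest and the 14 with the lowest log2 ratio, ordered by ratio and without CSAG3. MCM6, FAM111B and MCM5 are the abundant genes of the upper block, and SNRPD2 is the most abundant of the lower block.

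No gene list held more than 1 of the 25 lower genes. ANAPC13, a small subunit of the mitotic ubiquitin ligase APC/C, had 7.16 FPKM in siE2F7 and 29.6 FPKM in siNT (-2.03), at a locus that overlaps another gene. It was the 1 member of 15 counted APC/C genes past 1.5-fold in either direction; the median of the list was -0.13. PLA2G15, a lysosomal phospholipase (chromosome 16, 68279247 to 68294961, hg19), had 2.99 FPKM in siE2F7 and 10.9 FPKM in siNT (-1.83). It was the 1 of the 27 counted genes in the lysosome list past 1.5-fold. Over all genes counted 2.03% were 1.5-fold higher and 2.44% lower, so these counts set neither the APC/C nor the lysosome list apart. SNRPD2, a core protein of the spliceosomal particles, was the most abundant gene of the group at 84.5 FPKM in siE2F7 and 210.0 FPKM in siNT (-1.31). All of ANAPC13, PLA2G15 and SNRPD2 fell in the later libraries, with log2 ratios of -1.60 ± 0.13, -1.88 ± 0.16 and -1.53 ± 0.10 (SE; adjusted p from 2.56e-05 to 8.36e-05, limma).

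MYD88, the adaptor of Toll-like receptors, had 2.73 FPKM in siE2F7 and 7.46 FPKM in siNT (-1.42), and TNIP1, which restrains NF-kB with the editing enzyme A20, 12.98 FPKM in siE2F7 and 27.5 FPKM in siNT (-1.08). FBXW11, a substrate receptor of the SCF ubiquitin ligase, stood at 6.55 FPKM in siE2F7 and 16.3 FPKM in siNT (-1.31). The membrane protein gene EMP1 had 31.9 FPKM in siE2F7 and 70.4 FPKM in siNT (-1.14), and CA12, a carbonic anhydrase induced in hypoxia, 4.20 FPKM in siE2F7 and 9.16 FPKM in siNT (-1.11). PPPDE1 (-1.60), ARL2BP (-1.49), which encodes a partner of the small GTPase ARL2, FAM171A1 (-1.47) and EPDR1 (-1.21) lay between 11.5 and 19.5 FPKM in siE2F7 and between 31.97 and 45.4 FPKM in siNT. C6orf1 had a ratio of -1.45 at 0 h, -0.27 at 3 h and -0.72 at 12 h, and the difference did not pass (adjusted p = 0.934, limma).

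SLC39A14, a zinc importer, had 20.03 FPKM in siE2F7 and 40.8 FPKM in siNT (-1.02), CERK, the ceramide kinase, 13.5 FPKM in siE2F7 and 28.01 FPKM in siNT (-1.04), and GNPDA1, which deaminates glucosamine phosphate, 11.2 FPKM in siE2F7 and 22.7 FPKM in siNT. PCTP, which carries phosphatidylcholine between membranes, was lower in level at 4.08 FPKM in siE2F7 and 8.39 FPKM in siNT, and its ratio was -0.31 at 12 h. DCAF12, a substrate receptor of the CUL4 ligase, had 12.9 FPKM in siE2F7 and 26.5 FPKM in siNT, and the F-box protein gene FBXO9 9.53 FPKM in siE2F7 and 19.5 FPKM in siNT. The last 5 genes of the group, TMEM189-UBE2V1, C6orf120, TPRG1L, TMEM55A and RTKN, lay between 2.72 and 3.43 FPKM in siE2F7 and between 6.97 and 9.82 FPKM in siNT.

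Genes near the 2-fold limit show how the counts were set. The last inside it among higher genes were DUT (1.001), TIPIN (1.02) and CALU (1.03), and the first outside were CD200 (0.99), UHRF1 (0.98) and SYNE2 (0.98). On the lower side RTKN (-1.01), GNPDA1 (-1.02) and FBXO9 (-1.02) lay just inside, and GALC, TUSC2 and ARPC4 (-0.996, -0.99 and -0.99) just outside.

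The lists outside replication given here had small median ratios at 0 h, although single members had larger ones. Of 44 oxidative phosphorylation genes 41 had ratios below 0, beside 4918 of all 8963 genes counted. The list had a median of -0.17, although 0 of its members passed 1.5-fold. The complex I gene NDUFB3 had the lowest ratio, at 46.3 FPKM in siE2F7 and 66.00 FPKM in siNT. The median of the list was 0.10 at 3 h and -0.12 at 12 h. In the later libraries 0 of the 44 passed the test in either direction. Sterol synthesis had a median of -0.22 over 21 genes and p53 targets one of -0.11 over 30, with 0 past 1.5-fold in either list. Within the p53 list the cell cycle inhibitor CDKN1A was the highest, at 232 FPKM in siE2F7 and 166 FPKM in siNT (0.49). Of 8 counted NF-kB targets 2 were 1.5-fold lower, the chemokine gene CCL2 at 5.87 FPKM in siE2F7 and 10.7 FPKM in siNT and the cytokine gene LIF at 9.05 FPKM in siE2F7 and 13.99 FPKM in siNT. In the ATF4 list, with a median of 0.07 over 26 genes, the lipoprotein receptor gene VLDLR had 13.3 FPKM in siE2F7 and 6.78 FPKM in siNT (0.96, shared locus) and the amino acid transporter gene SLC7A5 83.1 FPKM in siE2F7 and 131 FPKM in siNT (-0.65). In the proteasome list, with a median of -0.08 over 31 genes, the catalytic subunit gene PSMB5 had 55.4 FPKM in siE2F7 and 104 FPKM in siNT (-0.90). None of 16 housekeeping genes passed 1.5-fold. At the shares of all genes counted, 2.03% higher and 2.44% lower, lists of these sizes would hold few such genes.

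Mitotic genes were close to equality at 0 h. Of 44 counted members 1, the proliferation marker gene MKI67, passed 1.5-fold, at 42.2 FPKM in siE2F7 and 28.1 FPKM in siNT (0.59). Over all genes counted 2.03% were 1.5-fold higher and 2.44% lower, so this count does not set the list apart. The median log2 ratio of the list was 0.08 at 0 h, 0.21 at 3 h and 0.44 at 12 h. The cyclin gene CCNB1 had a ratio of -0.28 at 0 h, -0.10 at 3 h and 0.28 at 12 h, and the mitotic kinase gene PLK1 -0.28, -0.19 and 0.42. In 40 of 44 members the 0 h ratio was below the mean of the later ones, set beside 6065 of 11741 genes fitted, but in none of the 44 did the difference pass. In the later libraries 18 of the 44 rose and 0 fell, beside 6.4% and 6.64% of all genes fitted.

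Of 46 replication-dependent histone genes in the list, 15 were listed at 0 h and the others were not analysed here. The 3 that passed the minimum were HIST1H2BK at 36.2 FPKM in siE2F7 and 51.8 FPKM in siNT (-0.52), HIST1H1C at 15.8 FPKM in siE2F7 and 19.3 FPKM in siNT (-0.29) and HIST1H2BD at 5.08 FPKM in siE2F7 and 5.86 FPKM in siNT (-0.20). At 12 h HIST1H2BK stood at 55.5 FPKM in siE2F7 and 218 FPKM in siNT (-1.97), and HIST1H2BK and HIST1H2BD fell in the later libraries (adjusted p = 0.000708 and 0.00185, limma). SLBP, which encodes the stem-loop binding protein of histone messages, was higher in siE2F7 at 0 h, at 50.9 FPKM in siE2F7 and 32.7 FPKM in siNT (0.64).

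Whether 0 h differed from the later times was tested over all 11741 genes. In limma 0 genes had a higher ratio at 0 h (0%) and 1 a lower one (0.00852%), while 567 had an unadjusted p under 0.05; the gene that passed, BAGE5, was below the minimum level. The median standard error of this difference was 0.202 on the log2 scale, against 0.117 for the later mean. Of the 31 fitted higher genes 24 had a 0 h ratio nearer to 0 than the later mean, and of the 25 lower genes 9 did. Both sets were picked by a large 0 h ratio, which by itself moves that ratio away from 0 relative to the later mean. Their split is therefore no test of a difference between times. Over all genes fitted the 0 h ratio was below the later mean for 6065 and above it for 5676. EFCAB11, with the most negative difference among counted genes after E2F2, stood at 6.38 FPKM in siE2F7 and 11.3 FPKM in siNT at 0 h (-0.81), but at 8.65 FPKM in siE2F7 and 4.86 FPKM in siNT at 12 h (0.82). This difference did not pass (adjusted p = 0.179, limma; 0.0275 to 0.873 over the alternatives).

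**Figure D5:**
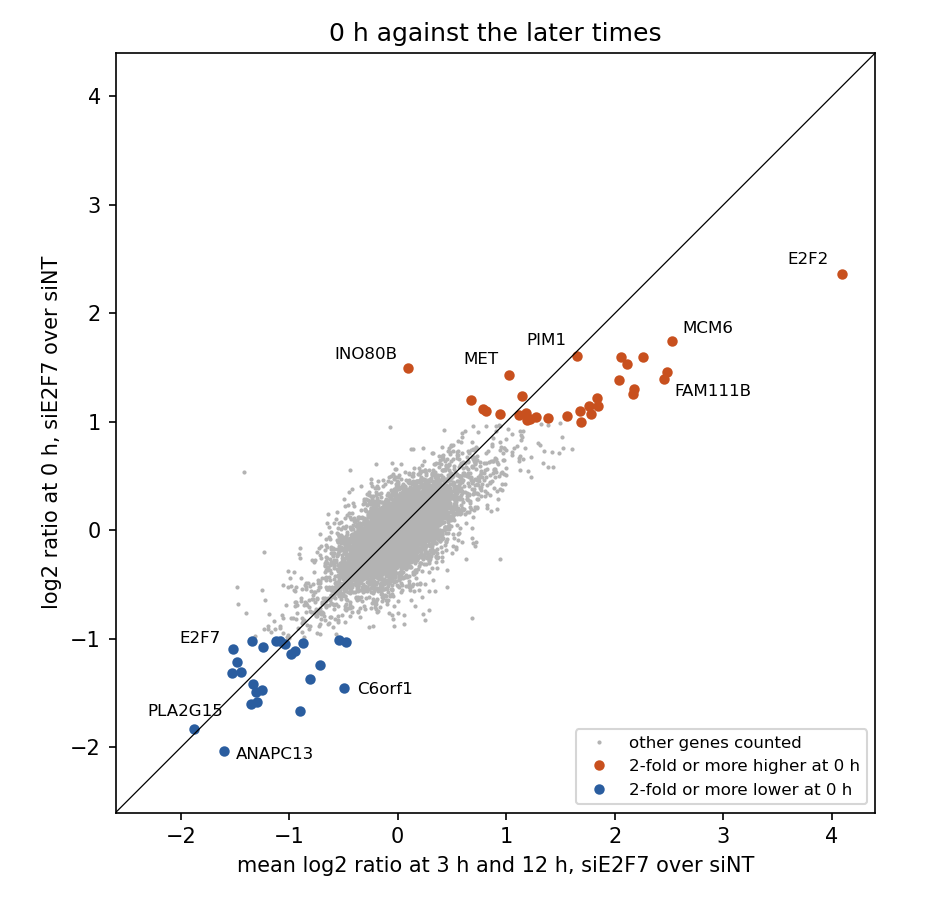
Log2 ratio of siE2F7 over siNT at 0 h (vertical) against the mean of the ratios at 3 h and 12 h (horizontal), for counted genes listed at all times; the line marks equality and colours mark genes 2-fold or more higher (orange) or lower (blue) at 0 h. E2F2 lies at 2.36 against 4.09, and INO80B at 1.501 against 0.09.

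For 24 of the 31 higher genes listed at all times (77.4%) the siNT level was highest at 0 h, against 43.7% of 8930 genes; in siE2F7 the level was highest at 0 h for 19 of the 31 (61.3%), against 41.5%. Among the 25 lower genes the level was highest at 0 h for 8 in siE2F7 (32.0%) and for 14 in siNT (56.0%). Both groups were picked by their 0 h values. That choice favours a high siE2F7 level at 0 h in the higher group and a high siNT level in the lower group. The shares of 61.3% and 56.0% are therefore no test. MCM6 had 110.4, 91.5 and 95.4 FPKM at 0, 3 and 12 h in siE2F7, and 32.9, 22.4 and 11.5 FPKM in siNT. CCNE2 had 60.4, 55.8 and 14.7 FPKM in siE2F7 and 28.6, 17.3 and 3.91 FPKM in siNT, so in siE2F7 its level was also far lower at 12 h. Whether the authors scaled the times together is unknown, and levels across times are given as deposited.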

How the data were processed

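RNA was measured in 6 libraries, 1 for each arm and time. The authors deposited FPKM for each gene. CASAVA 1.8 and hg19 (GRCh37) are named in the submitters' processing notes; which aligner, annotation and filters were used is not given in the sources used. Per the labels' protocols, libraries were made from total RNA with a TruSeq kit. The tables hold no counts, so depth and counting error are unknown.

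Tables were joined on the identifier of the authors' tables. A shared locus means that another entry has the same locus string. Ratios are log2((siE2F7 + 0.1)/(siNT + 0.1)) within a time. The later libraries and the difference from 0 h were fitted with limma 3.58.1 in R 4.3.3 on the 3 within-time log2 differences, with a term for 0 h, a variance trend and Benjamini-Hochberg adjustment at 0.05; the scripts were tested on simulated data. The fit has 1 residual degree of freedom and takes 3 h and 12 h as repeats of 1 effect. The labels do not say whether libraries are from separate cultures; p-values therefore reflect only how these libraries vary, which may be technical.

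Members and gene lists were chosen with earlier results of these data known. Genes named were E2F7, E2F8, E2F1 and E2F2, the 12 highest and 12 lowest 0 h ratios, the 5 highest and 5 lowest among genes of at least 100 FPKM, up to 4 members at each end of every list and the 6 largest differences each way; the other genes past 2-fold and those near the limit were named after their values were seen. Symbols are those of the tables. Alternatives were other pseudocounts (0.01 and 1), other minimum levels, median centring, equal upper quartiles, quantile normalization, no variance trend, no shared loci, small RNA entries counted and only genes listed at all 3 times. 1 gene counted among those past 2-fold is not reported here by name.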

Additional observations from a re-analysis of the deposited data

Results flagged for a closer look

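BAGE5, a cancer-testis gene of a multigene family, was the 1 gene whose 0 h ratio differed from the later ones by limma's test of the difference. It had 0.0005 FPKM in siE2F7 and 3.08 FPKM in siNT at 0 h, while at 3 h it had 2.37 FPKM in siE2F7 and 3.76 FPKM in siNT, and at 12 h 2.36 FPKM in siE2F7 and 3.40 FPKM in siNT. The log2 difference was -4.40 ± 0.42 (SE; adjusted p = 0.0104, limma, and 0.000141 to 0.202 over the alternatives), but with a level this near 0 its size is set by the pseudocount: it was -7.60 at 0.01 FPKM and -1.58 at 1 FPKM. Its level was below 5 FPKM, and reads of its near-identical copies may have been split.

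The small RNA entries, left out of all counts, showed wide ratios at 0 h. Of 45 with a pair mean of at least 5 FPKM, 9 passed 2-fold (20.0%), 3 higher and 6 lower in siE2F7. SNORD79 was listed at 0 in siE2F7 and at 12.0 FPKM in siNT, and SNORA10 had 7.51 FPKM in siE2F7 and 2.64 FPKM in siNT. At 12 h SNORA10 had 3.40 FPKM in siE2F7 and 9.76 FPKM in siNT.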

How the results depend on the processing

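Counts at 0 h depended on the minimum level. At a pair mean of at least 1 FPKM, 77 genes were 2-fold higher and 108 lower, and 368 were 1.5-fold higher and 587 lower; with no minimum these were 82, 124, 374 and 605. At 10 FPKM, 15 genes were 2-fold lower, and 121 and 127 were 1.5-fold higher and lower. Without the variance trend limma called 216 genes higher and 209 lower in the later libraries, and of the genes past 2-fold at 0 h C6orf1, MEX3D, RTKN, SLC19A1 and TPRG1L were no longer called. The difference between 0 h and the later times called 2 genes higher and 7 lower after median centring, 2 lower at a pseudocount of 0.01 and without the trend, 3 lower without shared loci, and 0 lower at a pseudocount of 1, at 5 FPKM or more and after quantile normalization. At 10 FPKM or more the medians of base excision repair, end joining and interferon-induced genes became 0.244, 0.193 and -0.411, and without shared loci that of epithelial markers -0.813. The cause was not tested for any of these. The balance of the 0 h counts turned with the settings: higher genes were 56.1% of those past 2-fold, but 41.6% at 1 FPKM and 39.8% with no minimum, and 45.4% of those past 1.5-fold, but 51.0% after median centring (207 higher, 199 lower). The medians of end joining, apoptosis and housekeeping genes, all near 0, changed sign under some settings, and no gene past 2-fold did.

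Pairing by replicate was not possible because each arm and time has 1 library, so the arms share only 1 replicate number to use as a block. The limma fit does pair the arms by time. Leaving out 3 h or 12 h leaves no residual degrees of freedom and was not run. Without counts, low genes cannot be given a counting error, and a ratio at 0 h rests on 1 library per arm.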
